A study of Mus musculus with 8 samples.

Results

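The locus described here is a stretch of mouse chromosome 17 that holds the cytokine genes Ltb, Tnf and Lta. Its members are the peaks of acetylated histone H3 (H3ac) that overlap positions 35408000 to 35430000 of the genome build GRCm39 by at least 1 bp, in 4 peak lists made from 1 library each. There were 32 such peaks of 193863 on chromosomes: 11 and 8 in the Gel pair (replicate 1, then replicate 2), and 5 and 8 in the CuNZ@Gel pair. Joined wherever they overlapped between libraries, they formed 9 regions of 81544, numbered 1 to 9 here from low to high coordinates. The libraries come from RAW264.7 cells, a mouse macrophage-like line, by chromatin immunoprecipitation with an antibody to acetylated H3 and sequencing. Cells labelled Gel and cells labelled CuNZ@Gel, 2 libraries each, differ by treatment label only. An exposure to extracts for 48 h is described for CuNZ@Gel, and fixation in 1% formaldehyde for 10 min for all samples, and what the Gel cells received is known from their label alone. By its title the series is about a sprayable hydrogel carrying a nanozyme, meant for wounds in diabetes, and the question asked of this locus is whether its H3ac differs with the treatment. Where a pair of values is given for a treatment, replicate 1 comes first and replicate 2 second. The labels do not state whether replicates are separate cultures, so p-values measure only the spread between these libraries, which may be technical.

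Tnf encodes tumor necrosis factor, an inflammatory cytokine that activated macrophages release in quantity and that signals through its receptors to nuclear factor kappa B. Lta encodes lymphotoxin alpha, a secreted relative made mainly by lymphocytes, which binds the same receptors. Ltb encodes lymphotoxin beta, a membrane protein that holds lymphotoxin alpha at the cell surface, where the joint complex binds the lymphotoxin beta receptor and guides the formation of lymphoid organs. Acetylated H3 marks open chromatin at active promoters and enhancers, and the promoter of Tnf is known for being accessible in macrophages before they are stimulated. In the RefSeq gene order, which comes from another build (GRCm38.p6), the protein-coding genes follow each other as Lst1, Ltb, Tnf, Lta and Nfkbil1. Ltb is read from the plus strand, and Tnf and Lta from the minus strand. The peak lists name no genes and no annotation of GRCm39 was used here, so no region below is assigned to a gene, and the macrophage label was not checked against marker genes.

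The promoters of all 3 genes were found in RefSeq's GRCm38.p6 sequences. The 250 bases before each start of transcription are shown because H3ac at promoters is what the mark is known for. Each runs in the gene's own direction and ends at the base before the start, and capitals mark matches to a motif searched on both strands. The motifs were the kappa B motif (GGGRNNYYCC), the TATA box (TATAAA), the GC box (GGGCGG), the AP-1 motif (TGANTCA) and the Ets core (AGGAAG). R is A or G, Y is C or T, and N is any base. No matches overlapped.
Ltb: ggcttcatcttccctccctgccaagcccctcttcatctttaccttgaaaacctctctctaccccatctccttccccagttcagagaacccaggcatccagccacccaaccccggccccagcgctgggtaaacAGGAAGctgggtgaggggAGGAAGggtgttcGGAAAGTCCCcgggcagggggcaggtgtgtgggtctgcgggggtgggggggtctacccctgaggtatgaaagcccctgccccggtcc
Tnf: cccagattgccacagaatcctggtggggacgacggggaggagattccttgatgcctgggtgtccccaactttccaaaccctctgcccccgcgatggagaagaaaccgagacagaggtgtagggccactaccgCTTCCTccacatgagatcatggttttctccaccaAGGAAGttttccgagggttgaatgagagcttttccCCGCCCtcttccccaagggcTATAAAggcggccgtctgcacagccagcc
Lta: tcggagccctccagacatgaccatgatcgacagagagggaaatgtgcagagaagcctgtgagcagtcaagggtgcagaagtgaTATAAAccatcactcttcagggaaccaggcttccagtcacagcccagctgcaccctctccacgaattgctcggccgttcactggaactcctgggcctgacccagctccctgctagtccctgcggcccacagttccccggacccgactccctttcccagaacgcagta
In Ltb, the capitals are Ets cores at -118 to -113 and -100 to -95 and a kappa B match at -87 to -78, counted back from the start. In Tnf they are Ets cores at -118 to -113 and -84 to -79, a GC box at -49 to -44 and a TATA box at -29 to -24. In Lta there was 1 match, TATAAA at -167 to -162. Of 32851 promoter stretches of this length, 7.25% held a kappa B match, 12.4% TATAAA, 32.7% a GC box, 6.75% an AP-1 match and 29.5% an Ets core. The GC content was 63.2% in Ltb, 57.6% in Tnf and 58.4% in Lta, beside a median of 52.4% over all. A match is a string of letters and does not show that a factor binds there. Only these strings were searched, and only in these 250 bases. The lack of a match thus does not show that a gene has no such site.

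Depth differed between the groups and bears on every value below. The files hold no read totals, so depth was read from the commonest background under the peaks of a list, in fragments per base. It was 4.62 and 4.28 in the Gel pair and 3.45 and 2.46 in the CuNZ@Gel pair. Over the whole genome the CuNZ@Gel lists held 62.8% as many peaks and covered 56.6% as many bases as the Gel lists (means of 2 libraries each). Both CuNZ@Gel libraries were shallower than both Gel libraries, so a difference in the mark and one in depth cannot be told apart in these totals. In bulk chromatin, a lower mark in all cells and its loss in some of the cells cannot be told apart either.

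H3ac was spread widely over the locus in both treatments, and peaks covered 85.4% as many bases of it in CuNZ@Gel as in Gel, where the figure for the whole genome was 56.6%. Peaks covered 11854 and 11582 bp of the 22001 bp in the Gel pair, and 10903 and 9119 bp in the CuNZ@Gel pair. Both Gel values lay above both CuNZ@Gel values, and CuNZ@Gel replicate 2, the shallowest library, was lowest. Gel averaged 11718 ± 192 bp and CuNZ@Gel 10011 ± 1261 bp (SD, n = 2). The difference of -1707 bp had an exact two-sided permutation p of 0.333 (n = 2 per group), the smallest that 6 assignments allow. Peak number overlapped between the groups, with 9.5 ± 2.12 peaks in Gel and 6.5 ± 2.12 in CuNZ@Gel (SD, n = 2; exact permutation p = 0.667, two-sided).

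The window was compared with windows of the same length, 22000 bp, laid end to end over the genome. Of 30410 windows with a peak in a Gel library, 99.9% had less Gel coverage than the locus. In the 101 windows whose Gel coverage was 0.8 to 1.25 times that of the locus, CuNZ@Gel kept a median of 69.9% of the Gel length, with quartiles of 56.0% and 76.7%. The 85.4% kept at the locus was above 93.1% of them. Without CuNZ@Gel replicate 1 the locus kept 77.8%, above 88.1% of its windows of like coverage, and without CuNZ@Gel replicate 2 it kept 93.0%, above 94.1%. Both CuNZ@Gel libraries lay below both Gel libraries at the locus, as in 98.0% of those windows.

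**Figure D1:**
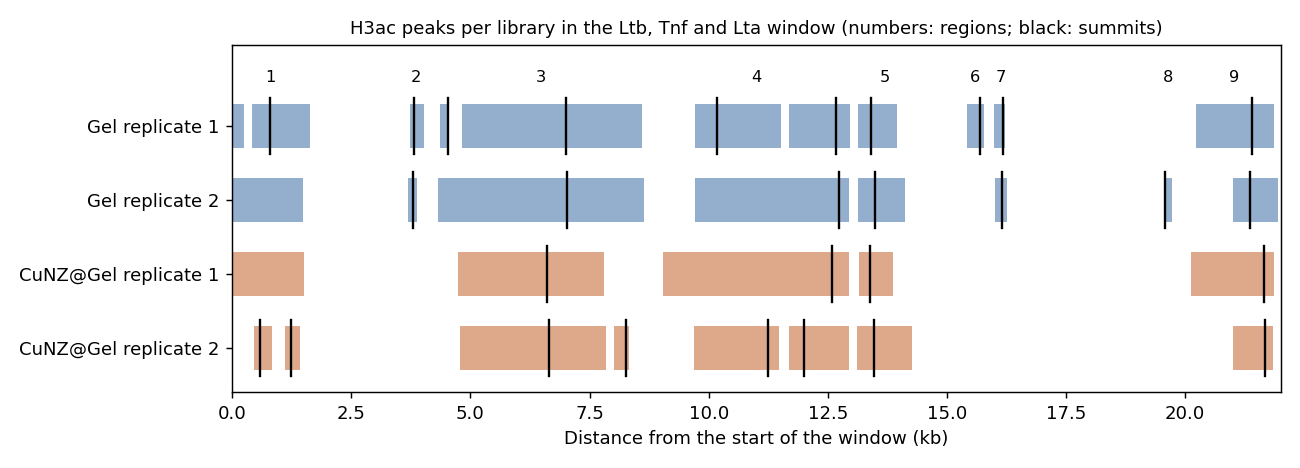
Peaks of the 4 libraries across the window, by distance from its start in kb. Bars are peaks, cut at the window's edges, black lines are summits inside the window, and numbers are the 9 regions. Regions 2, 6, 7 and 8 have bars in Gel libraries only, while regions 1, 3, 4, 5 and 9 have bars in all 4 libraries.

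Base by base, most of what was under a peak in any library was under a peak in all of them. Of 13974 bases under a peak in any library, 8223 (58.8%) were covered in all 4. A further 1026 bases were covered in the whole Gel pair but in no CuNZ@Gel library, and 10 bases showed the opposite. No library had a peak in 8027 bases. The longest such gap, 3279 bp, lay at 35424266 to 35427544, and the next, 2074 bp, at 35409623 to 35411696. A short gap of 163 bp at 35420956 to 35421118 separated regions 4 and 5 in every library.

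Region 4, at 35417041 to 35420955, carried the strongest H3ac of the locus. Fold below is the authors' fold enrichment over background at the summit of the highest peak. It was 22.5 and 25.2 in the Gel pair and 20.01 and 19.1 in the CuNZ@Gel pair, with -log10 p of 146.7 and 144.0 against 89.9 and 68.0. The summit was higher than 96.9% to 98.0% of the peaks of its own list in each of the 4 libraries. Both CuNZ@Gel folds were below both Gel folds, and the means were 23.8 ± 1.87 and 19.6 ± 0.654 (SD, n = 2), or 82.0% of Gel.

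The share kept was high for a region of this strength. The 1000 shared regions nearest in mean Gel fold, between 21.4 and 26.6, kept a median of 66.4% of their fold in CuNZ@Gel, with quartiles of 60.4% and 72.6%. Region 4 was above 93.9% of them. In Gel replicate 1 the local background under its highest peak was 5.39 fragments, above the 4.62 of that library. Shared regions are those with a peak in all 4 libraries, 21909 in all. Setting regions of like Gel fold beside each other matters here, since the fold is computed with 1 added to fragments and background, which lowers it more in shallow libraries. Scaled instead to the library background, the summit reached 31.0 and 30.8 times background in Gel and 25.5 and 26.4 times in CuNZ@Gel. That was 84.0% of Gel, against a median of 71.7% in the same 1000 regions and above 89.1% of them. The summit fragments behind these values were 143 and 132 in Gel and 88 and 65 in CuNZ@Gel, with exact Poisson 95% intervals of 120.5 to 168, 110.4 to 157, 70.6 to 108 and 50.2 to 82.8. Such intervals cover counting error only and are not scaled for depth.

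The covered width of region 4 overlapped between the treatments. Peaks covered 3070 and 3227 bp of it in the Gel pair, and 3896 and 3037 bp in the CuNZ@Gel pair. CuNZ@Gel replicate 1 was widest and CuNZ@Gel replicate 2 narrowest. The means were 3148 ± 111 and 3466 ± 607 bp (SD, n = 2). CuNZ@Gel thus covered 110.1% of the Gel width, where the 1000 regions of like Gel fold had a median of 80.1%, and 99.4% of them had a lower share. Those regions were narrower in Gel, with a median of 2223 bp. In the 822 shared regions within 25% of region 4 in both Gel fold and Gel width, the medians kept were 67.0% of fold and 77.8% of width. In limma's fit over all shared regions the difference was 318 bp, with a 95% interval of -506 to 1142 bp and an adjusted p of 0.454. In Gel replicate 1 and CuNZ@Gel replicate 2 the region was called as a pair of peaks, split near its middle. Gel replicate 1 had peaks at 35417703 to 35419511, with a fold of 9.26, and at 35419695 to 35420955, with the fold of 22.5. CuNZ@Gel replicate 2 had peaks at 35417693 to 35419479, with a fold of 8.63, and at 35419688 to 35420937, with the fold of 19.1. The left edge of the region was set by CuNZ@Gel replicate 1, whose peak began at 35417041.

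Region 3, at 35412327 to 35416634, kept the smallest share of its Gel fold among the 5 regions with peaks in all 4 libraries. Its fold was 12.8 and 14.2 in the Gel pair and 8.77 and 8.10 in the CuNZ@Gel pair. The groups did not overlap, and the means were 13.5 ± 0.969 and 8.43 ± 0.475 (SD, n = 2), or 62.4% of Gel. Regions of like Gel fold kept a median of 71.5%, with quartiles of 63.8% and 79.4%, and 21.7% of them kept a smaller share than region 3. Its summit fragments were 71 and 74 in Gel and 38 and 27 in CuNZ@Gel, which is 15.4 and 17.3 against 11.0 and 11.0 times the library background.

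Its covered width was also lower in both CuNZ@Gel libraries, by about as much as in regions of its strength. Peaks covered 3974 and 4308 bp in the Gel pair and 3064 and 3384 bp in the CuNZ@Gel pair, again without overlap. That was 77.9% of the Gel width, beside a median of 77.4% in the regions of like Gel fold, which had a median Gel width of 1645 bp. In the 304 shared regions within 25% in both Gel fold and width, the medians kept were 73.9% of fold and 74.3% of width. The difference was -917 bp with a 95% interval of -1509 to -325 bp, an unadjusted limma p of 0.0104 and an adjusted p of 0.0532. Its call turned on the setting: limma without its trend and robust options gave an adjusted p of 0.0388, and a replicate block one of 0.0444. The right end of the main peak differed between groups as well, and how many shared regions do so was not counted. Its left end overlapped, at 35412831 and 35412327 in Gel and at 35412732 and 35412771 in CuNZ@Gel. The main peak ended at 35416608 and 35416634 in Gel, and at 35415795 and 35415835 in CuNZ@Gel, where replicate 2 had a separate peak of 319 bp at 35416003 to 35416321 with a fold of 4.92. Gel replicate 1 had a separate peak of 196 bp at 35412354 to 35412549, with a fold of 2.85.

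**Figure D2:**
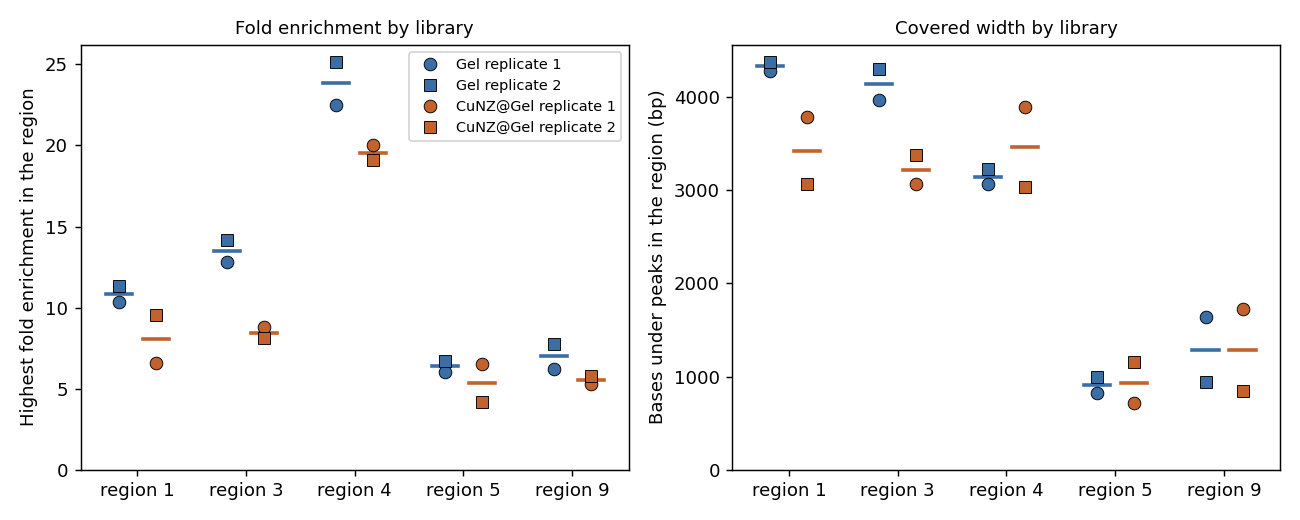
Highest fold enrichment (left) and bases under peaks in bp (right) for the 5 regions with peaks in all 4 libraries. Points are libraries, circles replicate 1 and squares replicate 2, and lines are group means. Region 4 is highest in fold in every library, and its covered widths overlap between Gel and CuNZ@Gel, while in region 3 the groups are apart on both measures.

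Region 5, at 35421119 to 35422276, and region 9, at 35428131 to 35429944, were weaker. In region 5 the fold was 6.06 and 6.73 in Gel and 6.52 and 4.15 in CuNZ@Gel, so the groups overlapped and CuNZ@Gel replicate 2 alone was low. The means were 6.39 ± 0.476 and 5.34 ± 1.68 (SD, n = 2), or 83.5% of Gel beside a median of 80.0% in regions of like Gel fold. Its summit fragments in CuNZ@Gel replicate 2 were only 15, with an exact Poisson 95% interval of 8.40 to 24.7. In region 9 the fold was 6.23 and 7.76 in Gel and 5.28 and 5.79 in CuNZ@Gel, with both CuNZ@Gel values lower. The means were 6.996 ± 1.08 and 5.53 ± 0.360 (SD, n = 2), or 79.1% of Gel beside a median of 77.7% in regions of like Gel fold. On this measure both regions lay near the middle of their comparison sets. In region 9 the local background in CuNZ@Gel replicate 1 was 4.31 fragments, above the 3.45 of its library. Scaled to the library background, its summit heights overlapped, at 7.36 and 9.35 in Gel and 7.83 and 7.72 in CuNZ@Gel. By height CuNZ@Gel kept 93.1% of Gel, beside a median of 82.5% and above 76.4% of regions of like Gel fold.

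In width, regions 5 and 9 resembled region 4. Region 5 was covered over 822 and 991 bp in the Gel pair and 711 and 1158 bp in the CuNZ@Gel pair, so the Gel values lay between the CuNZ@Gel values. Region 9 was covered over 1640 and 941 bp in the Gel pair and 1726 and 840 bp in the CuNZ@Gel pair, a large spread within each group. CuNZ@Gel covered 103.1% of the Gel width in region 5 and 99.4% in region 9. The medians in regions of like Gel fold were 65.6% and 68.1%, and 96.3% and 95% of those regions kept less. The limma differences were 28 bp with a 95% interval of -433 to 489 bp (adjusted p = 0.906) and -7.5 bp with an interval of -957 to 942 bp (adjusted p = 0.989). Both intervals are wide beside the regions themselves. The width of region 5 rests on CuNZ@Gel replicate 2: on the log2 scale its share was 0.65 above that of regions of like Gel fold, and 0.17 above without that library. That of region 9 was 0.55 above, and 0.05 above without CuNZ@Gel replicate 1 or 0.19 without Gel replicate 2.

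Region 1, at 35405102 to 35409622, reaches past the left edge of the window, and inside lay 1454 and 1484 bp of its peaks in the Gel pair and 1506 and 700 bp in the CuNZ@Gel pair. Its highest summits were left of the window in all 4 libraries. Over the whole region the fold was 10.3 and 11.4 in Gel and 6.58 and 9.55 in CuNZ@Gel, or 74.4% of Gel beside a median of 72.7% in regions of like Gel fold. Scaled to the library background the summit heights overlapped between groups, and CuNZ@Gel kept 95.3% of Gel, beside a median of 78.3% and above 88.7% of those regions. The width was 4287 and 4382 bp in the Gel pair and 3783 and 3064 bp in the CuNZ@Gel pair (limma adjusted p = 0.0833), which is 79.0% of Gel beside a median of 75.8%. Inside the window, CuNZ@Gel replicate 2 had only short peaks of 382 and 318 bp, with folds of 4.92 and 5.65. CuNZ@Gel replicate 1 had 1 long peak of 3365 bp, of which 1506 bp lay inside. The local background under that long peak was 5.38 fragments, above the 3.45 of its library. Gel replicate 1 was also split, with a peak of 1201 bp at 35408422 to 35409622 and a fold of 3.66. The local background under this peak was 7.19 fragments, above the 4.62 of its library. Gel replicate 2 had 1 peak of 4382 bp.

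**Figure D3:**
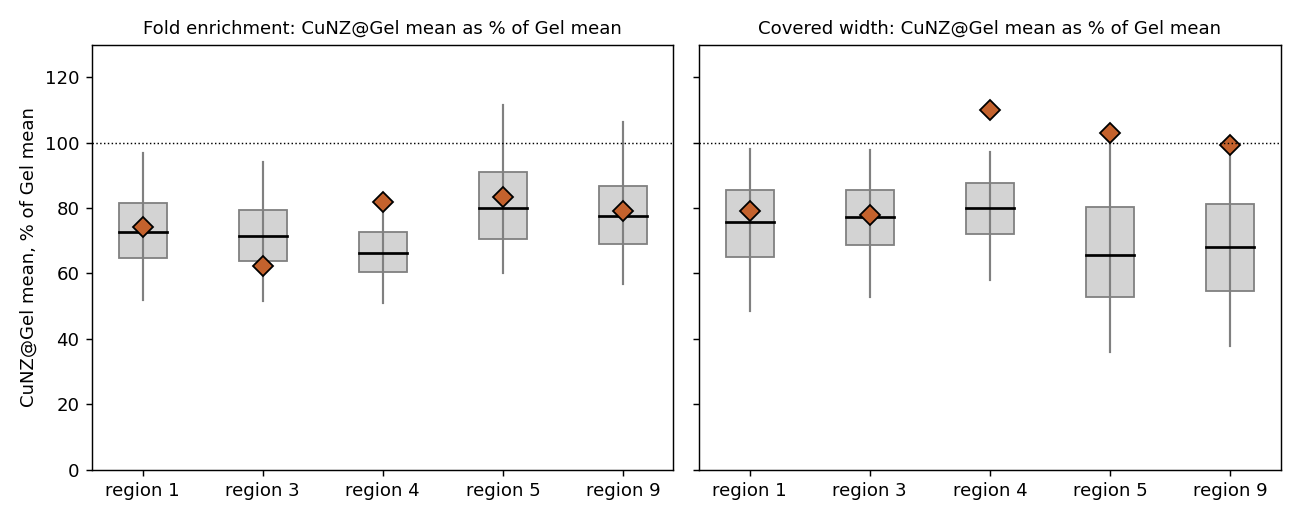
CuNZ@Gel mean as a percentage of the Gel mean, for fold (left) and covered width (right). Diamonds are the 5 shared regions of the locus; boxes give the quartiles, black lines the median and grey lines the 5th to 95th percentile of the 1000 shared regions nearest in Gel fold. In fold, region 4 stands above the box and region 3 below it; in width, regions 4, 5 and 9 stand above the boxes.

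Counted together, 4 of the 5 shared regions had both CuNZ@Gel folds below both Gel folds, and 0 had them above. Over all 21909 shared regions, 63.2% were lower and 4.55% higher in this sense, so the locus is near the background. By summit height scaled to the library background, 2 of 5 were lower in both (regions 3 and 4), beside 56.7% of all, and 0 higher, beside 7.18%. By covered width, 2 of 5 were lower in both (regions 1 and 3), beside 74.5% of all, and 0 higher, beside 1.26%. The median share kept was 79.1% for fold and 99.4% for width over the 5 regions, beside 78.0% and 72.8% over all shared regions. Regions 4, 5 and 9 account for the high median in width, and their libraries overlapped between groups.

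As fitted, limma called no difference of covered width at the locus. Some other settings of the fit called 1 bin or 1 region each, and the bin was not the same in all of them. In limma's fit of 68188 bins of 4 kb, 0 of the 6 bins of the window had an adjusted p under 0.05, and 0.0% of all bins did. 1 of the 6, at 35412001 to 35416000 inside region 3, was lower at an unadjusted limma p of 0.0397, as were 23.7% of all bins at 0.05. It was covered over 3389 and 3674 bp in the Gel pair and 3064 and 3065 bp in the CuNZ@Gel pair, with an adjusted p of 0.188. With a replicate block the bin at 35408001 was called lower (limma adjusted p = 0.0266), in a fit that called 16.3% of all bins lower. In limma's fit of shared regions, 0 of 5 passed in either direction, while 17.6% of all shared regions were called lower and 0.0593% higher. At an unadjusted limma p under 0.05, 2 of 5 (regions 1 and 3) were lower, beside 41.8% of all. Region 3 was called lower without limma's trend and robust options and with a replicate block, where 18.2% and 18.6% of all shared regions were, so 1 of 5 is near the background. These fits are not corrected for depth.

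4 of the 9 regions had peaks in Gel libraries only, and all were weak. Of all 81544 regions, 49.9% had peaks in Gel libraries only and 8.46% in CuNZ@Gel libraries only, which 0 of the 9 had. Regions 2 and 7, 2 of the 9, had peaks in the whole Gel pair and in no CuNZ@Gel library, beside 12.0% of all regions. Region 2, at 35411697 to 35412023, had folds of 4.21 and 4.54 in the Gel pair, from 24 and 23 summit fragments. Region 7, at 35423983 to 35424265, had folds of 2.67 and 3.41, from 14 and 17 fragments. Among the 1000 regions nearest in Gel fold that also had a peak in the whole Gel pair, 25.5% had no CuNZ@Gel peak for region 2, and 71.0% for region 7. The other two were called in a single Gel library: region 6, at 35423414 to 35423776, in replicate 1 with a fold of 3.38, and region 8, at 35427545 to 35427727, in replicate 2 with a fold of 2.46 and a -log10 p of 3.29. Among the 1000 regions nearest in fold in that same library, 72.9% had no CuNZ@Gel peak for region 6, and 87.4% for region 8. The lowest -log10 p in the CuNZ@Gel lists was 3.37 and 3.41. With summit fragments and background scaled down to the depth of the shallowest library, CuNZ@Gel replicate 2, the -log10 p was 6.12 and 6.45 in region 2, 4.28 in region 6, 2.42 and 4.27 in region 7 and 2.41 in region 8. The Gel peaks of regions 2 and 6 and that of region 7 in Gel replicate 2 thus stayed above the lowest value in the list of that library, 3.41, while that of region 8 and that of region 7 in Gel replicate 1 did not. This scaling carries no counting error, and whether depth accounts for the lack of CuNZ@Gel peaks in any of these regions was not tested.

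**Figure D4:**
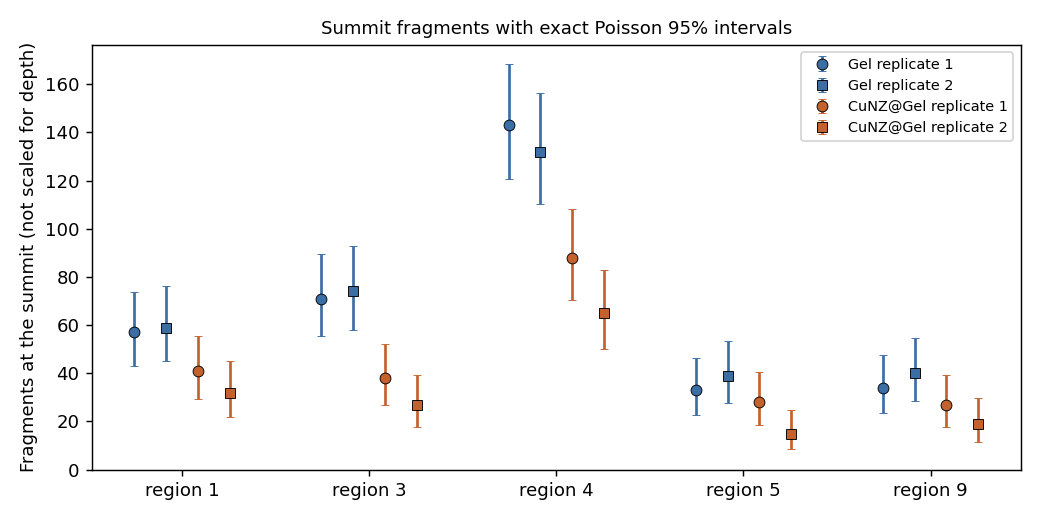
Fragments at the highest summit of each shared region in each library, not scaled for depth, with exact Poisson 95% intervals that cover counting error only. Gel and CuNZ@Gel intervals are apart in region 3 and in region 4, where Gel has 143 and 132 fragments and CuNZ@Gel 88 and 65. They overlap in region 9, and in region 5 except between Gel replicate 2 and CuNZ@Gel replicate 2. Gaps between these intervals include the difference in depth. The library background was 4.62 and 4.28 fragments in Gel and 3.45 and 2.46 in CuNZ@Gel. The intervals were not compared after scaling.

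Summit positions of the treatments did not overlap in 3 of the 5 shared regions (3, 4 and 9), beside 37.2% of all shared regions, and lay well apart in regions 3 and 9. In region 3 the summit lay at 35415001 and 35415020 in Gel, 19 bp apart, and at 35414612 and 35414656 in CuNZ@Gel, 44 bp apart. The groups were thus 345 bp apart at their nearest, with CuNZ@Gel at lower coordinates. In region 9 it lay at 35429392 and 35429368 in Gel and at 35429649 and 35429675 in CuNZ@Gel, 257 bp apart at the nearest and with CuNZ@Gel at higher coordinates. Replicate summits within 50 bp in each group and groups at least 200 bp apart were seen in 2 of the 5 regions and in 1.29% of all shared regions. Among the shared regions whose replicate summits were within 50 bp in each group, 4.72% had the groups at least 200 bp apart, and 5.84% where the mean Gel width was also at least 1000 bp. Both limits were chosen after these positions were seen, and 2 against 2 libraries allow no exact permutation p under 0.333. In region 4 the summits lay at 35420665 and 35420735 in Gel and at 35420584 and 35420009 in CuNZ@Gel. The CuNZ@Gel replicates were 575 bp apart there, so the groups, 81 bp apart at the nearest, differed by less than the spread within CuNZ@Gel. In region 5 the summits of all 4 libraries fell within 95 bp and overlapped between groups.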

How the data were processed

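The authors deposited 1 peak list per immunoprecipitated library; input libraries were not analysed here. The submitters' processing notes name GRCm39, MACS2 2.2.8, SAMtools 1.17, deepTools 3.5.6 and fastp; the aligner, like the caller settings, is not given in the sources used here. Each deposited list holds a fold enrichment ratio at the summit, a −log10 p, a −log10 q and a score, without counts, and comes from 1 library. Fold and score come from the authors' caller and serve here to describe peaks.

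Fold and −log10 p were solved for a background and a whole number of summit fragments, with a solution for 100% of peaks. Peaks were joined across lists at 1 bp overlap. The fold of a region is that of its highest peak. The widths were fitted with R 4.3.3 and limma 3.58.1 (options trend and robust; Benjamini-Hochberg over all bins or shared regions), after a check on simulated data. Window values were tested by exact permutation over 6 assignments. Every peak in the window entered the values above, and the −log10 p and summit are printed for only some of them. Ltb, Tnf and Lta were named with their RefSeq neighbours. Pathway and cell type lists were planned only for an annotation of this build and were not counted. The window, units and tests were chosen with earlier results of these data known. Alternatives were a stricter −log10 q of 5, equal list length, summits scaled to the lowest depth, other bins and scales, other comparison sets, a replicate block, and leaving out each library. Groups follow the labels. Coordinates are 1-based.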

Additional observations from a re-analysis of the deposited data

How the results depend on the processing

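Covered bases of the window were lower in CuNZ@Gel in every setting run: the difference of -1707 bp was -1668 bp at the stricter threshold, -1088 bp with equal list length, -1402 bp without the 3 Gel peaks whose summits fell under the lowest -log10 p of the shallowest library when scaled to its depth (the widths of the other peaks stayed as called), -1968 bp with 2 kb added on each side, and -2599 to -815 bp without any 1 library, the smallest without CuNZ@Gel replicate 2. The difference in peak number, -3, ranged from -4.5 to -0.5. Beside windows of like Gel coverage the locus kept 15.6 percentage points more, and 12.2 to 19.2 points without any 1 library; this comparison, the width shares and the set alike in fold and width were chosen after the data were seen.

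In the 4 kb bins, 0 of 6 were called by limma as fitted (1 at an unadjusted p under 0.05), and 1 with a replicate block, the bin at 35408001 (adjusted p = 0.0266; 16.3% of all bins were called lower). Leaving out 1 library gave 0 to 1, with the bin at 35424001 called without either Gel library, where 27.7% (without replicate 1) and 25.4% (without replicate 2) of all bins were; that fit takes its spread from the CuNZ@Gel libraries, both at 0, and assumes that the lone sample varies likewise. In the shared regions, 0 of 5 became 1, region 3, without trend and robust and 1, region 3, with a replicate block, beside 18.2% and 18.6% of all. Over bins, libraries with the same number deviated together with r = 0.0092, so pairing by number is not shown, and that fit has 1 residual degree of freedom. No other setting gave a call in the window. Over the genome the bin fit called 0 lower, but 2383 with 10 kb bins, 1630 with quantile normalization (and 232 higher), 11123 with the block, and 18881 and 17294 without Gel replicate 1 or 2. The shared-region fit called 3860 lower, 12 with quantile normalization, 2194 with log2 widths, 0 with regions in at least 2 libraries and 0 without any 1 library, so neither fit gives a stable number; the cause was not tested.

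The relative fold, a log2 difference from regions of like Gel fold, was 0.31 in region 4 and 0.21 to 0.42 without any 1 Gel library, and -0.20 in region 3, with -0.28 without Gel replicate 1 and -0.10 without Gel replicate 2, the extremes of all settings. That of regions 1, 5 and 9 had no settled sign: region 1 was at 0.03, with -0.28 to 0.30 without any 1 library (lowest without CuNZ@Gel replicate 2), and region 5 at 0.06, with -0.28 to 0.33 (lowest without CuNZ@Gel replicate 1). Their median over 5 regions was 0.03, and -0.06 to 0.14 without any 1 library. The relative width of region 4 was 0.46, and 0.32 to 0.58 without any 1 library; that of region 3 was 0.01, with -0.12 without CuNZ@Gel replicate 2 and 0.14 without CuNZ@Gel replicate 1. With comparison regions within 25% in both fold and width, region 4 kept more than 91.1% of 822 in fold and 99.4% in width. Low fragment numbers limit regions 2, 5, 6, 7, 8 and 9 most.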
